A study of Mus musculus with 6 samples.

Results

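The genes described here are 43 genes of mitosis and of the G2/M transition, measured in single bone marrow-derived macrophages. They were taken from a list of gene names, from Cdk1 and its cyclins to the condensins, that applies no threshold to measured values but was drawn up with earlier results of these data known, and 43 of 43 were found among the 18429 genes of the count matrix. The data are UMI counts from MARS-seq, a plate-based single-cell method that counts the molecules of each transcript by a unique molecular identifier (UMI). The 6 samples are wild-type and Rad21-/- macrophages that were untreated or exposed to LPS, a bacterial lipopolysaccharide from Salmonella typhosa, at 10 ng/ml for 2 h or 8 h. The mice that gave bone marrow had a mixed genetic background of C57BL/6 and a further inbred strain and carried either Rad21 WT/WT or Rad21 lox/lox alleles. Mice of both sexes, aged from 6 weeks to 6 months, served for the experiments of the study, and the ages behind the single samples are not given in the sources used here. Both genotypes carried creERT2/creERT2 at the Rosa26 locus, and both received 200 nM 4-hydroxytamoxifen on day 4 of culture, before use on day 7. The Rad21-/- sample is therefore a culture in which floxed alleles were deleted during differentiation, by a Cre that is not restricted to macrophages. The number of animals behind each sample is not given in the sources used here.

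Each combination of genotype and time is 1 sample. No test was run for this reason, a difference between samples has no replicate check, and every interval is a 95% interval that covers counting error only. The samples hold up to 270 cells each, 1362 cells in all, with medians of 5577 to 7055.5 UMIs per cell. The 1362 pool and well names are all different, so that 0 are shared between samples. There are 17 wells with more than 25000 UMIs, and these hold 45.5% of the UMIs of the wild-type 2 h sample against 1.71% in untreated wild-type macrophages. Because deeper cells show more genes, values at equal depth are given as well, for which 3800 UMIs were drawn at random from each cell and 21 to 47 shallower cells per sample were left out. Cells came from 24 library pools, each of 1 time point, so that the effect of LPS and that of the pool cannot be told apart, whereas nearly all pools hold both genotypes. The labelled cell type was checked against 10 macrophage markers. Cd68 had UMIs in 93.8% to 100% of the cells of each sample and Lyz2 in 98.9% to 100%, both genes of macrophage lysosomes and granules. C1qb was found in 95.2% to 98.3%, but other markers of the list in fewer cells, with Fcgr1 in 41.9% to 90.3% and Mertk in 4.46% to 11.7%. Cd14 was found in 86.2% of untreated wild-type and 48.1% of untreated Rad21-/- cells. Of the markers of other cell types, many are not rows of the matrix, among them all 4 erythroid genes that were listed. Kit, the only gene with a row among those listed for granulocytes and progenitors, had UMIs in 18.8% to 30.4% of the cells of each sample.

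Rad21, the targeted gene, which encodes a subunit of the cohesin ring, was checked first. Rad21 had UMIs in 25.9%, 26.9% and 18.7% of wild-type cells (untreated, 2 h and 8 h) and in 2.96%, 6.45% and 5.80% of Rad21-/- cells. The intervals of the genotypes do not overlap at any time. The libraries thus go with their genotype labels, with a low level of Rad21 transcripts left in the Rad21-/- samples.

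Cells that divide pass from S phase, in which DNA is copied, through G2 into mitosis, and many genes needed for the last steps are transcribed mainly in G2 and M. The cyclin-dependent kinase Cdk1 with cyclins A and B starts mitosis, the spindle checkpoint holds the anaphase-promoting complex back until chromosomes are attached, and the complex then marks cyclin B and securin for destruction. Cohesin, of which Rad21 is a part, holds sister chromatids together until that point. Differentiated macrophages in culture divide in part under the growth factor in conditioned medium, and LPS is known to halt their proliferation.

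Many promoters of this class share short sequence elements, the cell cycle homology region with the letters TTTGAA close to the start and CCAAT boxes further upstream. RefSeq promoter windows on GRCm38.p6, from 250 bases before to 50 after a start, were found for 37 of the 43 genes. TTTGAA, on either strand and within 50 bases of the start, was found in 24 of the 37 genes (64.9%) and in 5.72% of all 27025 genes with a window. CCAAT on either strand, anywhere in the window, was found in 29 of the 37 genes and in 41.1% of all genes, and more than 1 CCAAT in 20 genes against 13.3%. Both elements together were found in 23 genes (62.2%) and in 2.79% of all genes. In 0 of the 40 windows of listed genes did a TTTGAA share bases with a CCAAT. A match is a run of letters and not a measured binding site. The windows of 5 genes are shown from 120 bases before to 30 after the start, read 5′ to 3′ on the gene's strand, with both elements and their reverse complements in capitals. They are the windows of cyclin B2, Cdk1, the checkpoint target Cdc20, the ubiquitin carrier Ube2c and topoisomerase Top2a. These genes were chosen because they hold both elements close to the start and were found in fewer wild-type cells at 8 h of LPS. The latter holds for 42 of the 43 genes and does not set them apart.
Ccnb2, chr9:70421525-70421674, minus strand: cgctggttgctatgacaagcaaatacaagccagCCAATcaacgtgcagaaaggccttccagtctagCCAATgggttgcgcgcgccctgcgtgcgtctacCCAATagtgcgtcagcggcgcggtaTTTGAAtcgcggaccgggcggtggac
Cdk1, chr10:69352883-69353032, minus strand: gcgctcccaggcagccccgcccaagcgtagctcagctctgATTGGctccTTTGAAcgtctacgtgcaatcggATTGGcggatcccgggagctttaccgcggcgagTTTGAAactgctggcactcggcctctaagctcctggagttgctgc
Cdc20, chr4:118437314-118437463, minus strand: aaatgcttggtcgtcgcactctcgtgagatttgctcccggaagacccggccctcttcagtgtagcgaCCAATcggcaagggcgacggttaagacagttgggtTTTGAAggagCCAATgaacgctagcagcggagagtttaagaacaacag
Ube2c, chr2:164769809-164769958, plus strand: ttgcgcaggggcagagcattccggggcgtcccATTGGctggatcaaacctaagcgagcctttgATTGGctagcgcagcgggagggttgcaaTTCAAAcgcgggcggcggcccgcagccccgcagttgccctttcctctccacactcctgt
Top2a, chr11:99024160-99024309, minus strand: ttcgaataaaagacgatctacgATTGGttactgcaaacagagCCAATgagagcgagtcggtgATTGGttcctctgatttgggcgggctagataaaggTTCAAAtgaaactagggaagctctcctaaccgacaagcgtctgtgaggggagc

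The windows of 2 genes, Pttg1 and Kif2c, belong to a start that lies over 1000 bases inside the gene and not to its outermost start. They hold no CCAAT and no TTTGAA within 50 bases of that start, and are not shown. Cks2 and Ccnb1 have CCAAT boxes but no TTTGAA within 50 bases of the start, and Birc5 has no CCAAT either. The log2 ratio of the mean level in wild-type cells at 8 h to untreated cells was -3.29 for Ccnb1 and -3.81 for Birc5. Its median was -2.74 over 24 genes with TTTGAA near the start (-6.58 to -0.67) and -1.84 over 13 without it (-3.81 to 1.65), genes with few UMIs included. A link between the elements and the change was not tested.

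To ask how much of each cell's RNA came from the mitotic genes, their UMIs were summed per cell as a percent of all UMIs of the cell. The mean was 0.156% in untreated wild-type cells, 0.133% at 2 h and 0.0552% at 8 h of LPS. In Rad21-/- cells it was 0.0906% untreated, 0.0499% at 2 h and 0.0519% at 8 h. Untreated and 2 h wild-type cells were thus the highest, untreated Rad21-/- cells lay between, and the other 3 samples were low and close to each other. The medians over cells differed less, from 0.0415% in Rad21-/- cells at 2 h to 0.0730% in untreated wild-type cells. At 3800 UMIs per cell the 43 genes made up 0.153% of the UMIs of untreated wild-type cells (0.144 to 0.162), then 0.139% after 2 h (0.130 to 0.148) and 0.0566% after 8 h (0.0517 to 0.0618). The same shares in Rad21-/- cells were 0.0925% (0.0862 to 0.0992), 0.0501% (0.0445 to 0.0561) and 0.0552% (0.0501 to 0.0607).

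**Figure D1:**
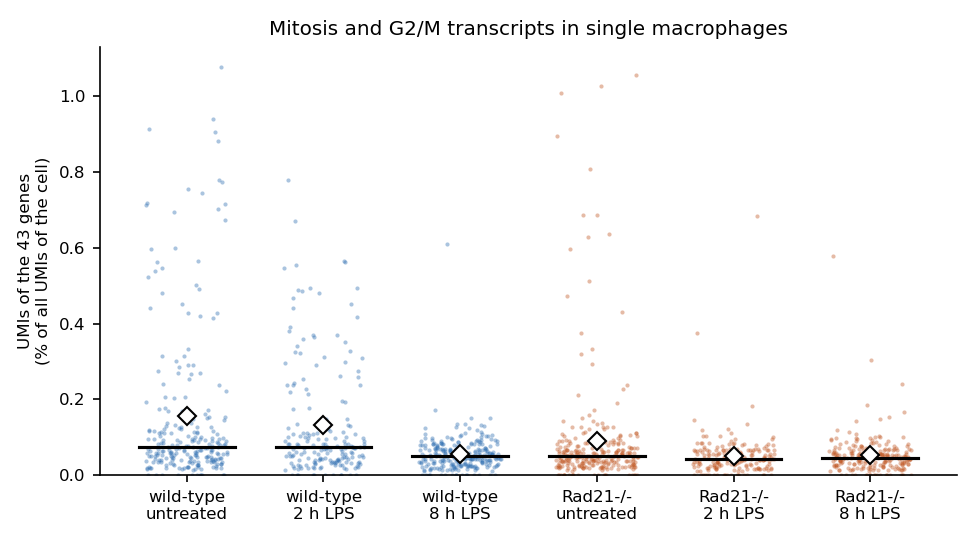
Percent of each cell's UMIs that came from the 43 mitosis and G2/M genes, with 1 point per cell, a black line at the median and a diamond at the mean of each sample. Cells above 0.2% are numerous in wild-type cells that were untreated or at 2 h and in untreated Rad21-/- cells. The means stand above the medians in all samples, and by the most in those just named. The medians of all samples lie between 0.0415% and 0.0730%.

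Transcripts of these genes were unevenly spread over cells. In the thinned data, the 20 untreated wild-type cells with most of these UMIs, about the top 10% of that sample, held 47.8% of the sample's UMIs of the 43 genes, and the 23 top cells of untreated Rad21-/- macrophages held 54.8%. In the wild-type 8 h sample the 23 top cells held 26.3%. Cells in which at least 4 of the 43 genes were detected at 3800 UMIs made up 38% of untreated wild-type cells (73 of 192, exact interval 31.1 to 45.3), 37.6% at 2 h (62 of 165, 30.2 to 45.4) and 7.89% at 8 h (18 of 228, 4.75 to 12.2). In Rad21-/- macrophages the shares were 17% untreated (38 of 223, 12.3 to 22.6), 9.09% at 2 h (14 cells, 5.06 to 14.8) and 10.8% at 8 h (22 of 203, 6.92 to 15.9). The cut at 4 genes divides a range and not a cell type, since 23 and 17 untreated wild-type cells had exactly 3 and exactly 4 of the genes.

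Cells with at least 10 of the genes were found mainly in 3 samples. They numbered 26 of 192 in untreated wild-type cells (13.5%, 9.04 to 19.2), 28 of 165 at 2 h (17%, 11.6 to 23.6) and 14 of 223 in untreated Rad21-/- cells (6.28%, 3.47 to 10.3). The wild-type 8 h sample, the Rad21-/- 2 h sample and the Rad21-/- 8 h sample each had 1 such cell (0.439%, 0.649% and 0.493%). In the untreated samples, cells with at least 4 genes carried a mean of 12.6 UMIs of the 43 genes in wild-type and 13.0 in Rad21-/- macrophages, against 5.78 in wild-type and 5.95 in Rad21-/- macrophages at 8 h. At 2 h this mean was 11.3 in wild-type and 6.86 in Rad21-/- macrophages. Cells below the cut carried means of 1.41 to 1.84 UMIs in every sample, a range that the cut itself limits.

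**Figure D2:**
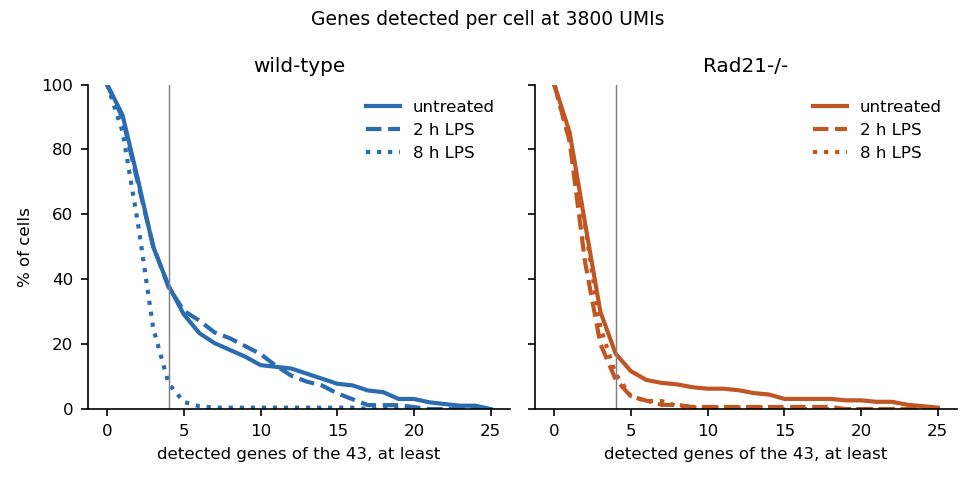
Percent of cells, thinned to 3800 UMIs, in which at least the number of the 43 genes on the horizontal axis was detected, for wild-type cells (left) and Rad21-/- cells (right), with the grey line at 4 genes. The untreated and 2 h wild-type curves keep a long tail (13.5% and 17% of cells at 10 genes), the untreated Rad21-/- curve a lower one (6.28%), and the 3 other curves are under 1% at 10 genes.

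Cells with at least 4 of the genes were compared with the remaining cells of the same sample for genes that are not in the list. The 45 genes listed as other mitosis genes include further kinesins and also tubulins that were found in most cells. Before thinning, Tubb5 was found in 78.7% and Tuba1b in 72.0% of untreated wild-type cells, and both count in the sums. The 45 genes had a mean of 14.9 UMIs per thinned cell in untreated wild-type cells above the cut and 4.26 below it. In untreated Rad21-/- cells these means were 12.1 and 3.61. At 8 h this contrast was smaller, with 3.22 and 2.46 UMIs in wild-type cells. The 24 S-phase genes found, which copy DNA, had means of 4.96 and 3.33 UMIs in untreated wild-type cells and 3.55 and 1.79 in untreated Rad21-/- cells. The 10 macrophage markers had like sums on both sides of the cut, 43.6 and 46.5 UMIs in untreated wild-type cells and 30.8 and 31.4 in untreated Rad21-/- cells. Before thinning, the median depth of cells above the cut was 6981 UMIs against 5942 below it in untreated wild-type cells, and 6287 against 6080 in untreated Rad21-/- cells. Rad21 itself had 0.411 UMIs per thinned cell above the cut and 0.118 below it in untreated wild-type cells, and 0.323 and 0.0874 at 2 h. At 8 h of LPS these wild-type values were 0.111 and 0.129.

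The comparison of genotypes asks what the loss of Rad21 goes with in the same medium and at the same time. In untreated macrophages the summed share of the 43 genes was 0.582 times that of wild-type cells, and 0.605 times at equal depth (0.551 to 0.663). At 2 h of LPS the ratio was 0.375, and 0.361 at equal depth (0.315 to 0.412). At 8 h it was 0.941, and 0.976 at equal depth (0.856 to 1.11), so that no difference between genotypes in the summed share was detectable there. Both genotypes were present in the same library pools, which allows the comparison within a pool. Only pools that held 10 or more cells of both genotypes were used, and the share was lower in Rad21-/- cells in 7 of 8 untreated pools (ratios of 0.306 to 1.18), in 4 of 4 pools at 2 h (0.318 to 0.533) and in 4 of 6 at 8 h (0.591 to 1.29). The tally at 8 h was 2 of 6 without Pttg1 (0.642 to 1.80) and 2 of 6 by the share of cells with at least 4 of the genes. Markers of macrophages and of other cell types differed between the genotypes too. The 10 macrophage markers summed to 11751 CPM (UMIs scaled to 1000000 per cell) in untreated wild-type cells and 8331 in untreated Rad21-/- cells, and in the other samples to 7688 to 12468. Ighm, the immunoglobulin heavy chain of B cells, had UMIs in 8.56% to 17.2% of wild-type cells and in 42.4% to 52.2% of Rad21-/- cells, while Ms4a1, the other of 5 listed B cell genes with a row, had UMIs in 3.33% to 9.14% of the cells of all samples. The part of these differences in the result was not tested.

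**Figure D3:**
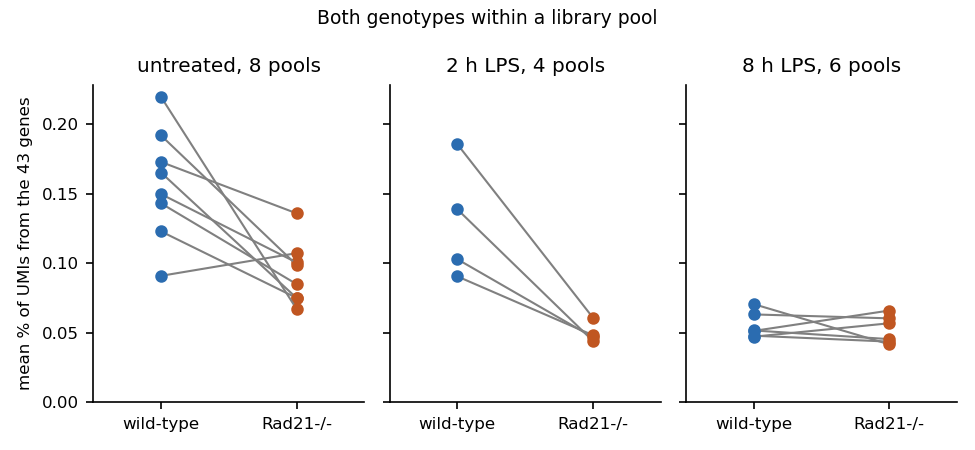
Mean percent of UMIs from the 43 genes in wild-type and Rad21-/- cells of the same library pool, for pools that held 10 or more cells of both, where each line joins the genotypes of 1 pool. The lines slope down to Rad21-/- cells in 7 of 8 untreated pools and in 4 of 4 pools at 2 h, and at 8 h in 4 of 6.

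Single genes were described in 2 ways, by the share of cells with at least 1 UMI and by the mean CPM over all cells of a sample. A gene was said to pass 1.5-fold if its mean CPM, with a small constant added, differed by that factor and it had at least 50 UMIs in the compared samples together. Genes with few UMIs can enter through the sample in which they are high, so that the count of genes past 1.5-fold is given beside the same share over all genes that met the filter, and the count of lower shares covers all 43. No fewer than 62 and at most 818 UMIs were counted per listed gene, and 20 of the 43 overlap another gene in the RefSeq table, for example Ccna2 with Exosc9, Cdc20 with Elovl1 and Aurka with Cstf1. Whether counting used the strand is not given in the sources used here.

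In untreated cells, 41 of the 43 genes were found in a smaller share of Rad21-/- than of wild-type cells, and 35 of 43 at equal depth. Over all 9366 genes with 50 UMIs, 49.4% were found in a smaller share of Rad21-/- cells, and 53% at equal depth. The median difference over the 43 genes was -5.43 percentage points, against 0.0542 over all genes. Of 37 listed genes that met the filter, 26 were lower by 1.5-fold and 0 higher, where the background was 12.7% lower and 6.87% higher. The exceptions by share were Cenpa, the histone variant of centromeres, with 17.8% against 17.6%, and Kif4, a chromosome-bound kinesin, with 6.30% against 5.02%.

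At 2 h of LPS, 43 of the 43 genes were found in a smaller share of Rad21-/- than of wild-type cells, also at equal depth, where 52.4% of all genes were with all UMIs and 49.4% at equal depth. The median difference was -9.68 percentage points and -4.89 at equal depth, against -0.538 over all genes. Of 33 genes that met the filter, 29 were lower by 1.5-fold and 0 higher (background 13.9% lower and 11.4% higher). Without the wells of more than 25000 UMIs 14 genes were lower by 1.5-fold, and 17 were without the 2 h pool that held most wild-type cells of that time (47). How many listed genes met the filter in these cases is not given.

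At 8 h, 13 of the 43 genes were found in a smaller share of Rad21-/- cells, and 16 at equal depth, while all genes also leaned to higher shares in Rad21-/- cells (19.0% lower, and 36.8% at equal depth). The median difference of the 43 genes was 1.40 percentage points against 5.31 over all genes. Of 12 genes that met the filter, Cks1b and Top2a were higher by 1.5-fold and Pttg1 and Mad2l1 lower, beside a background of 23.3% higher and 10.5% lower. Cks1b was found in 5.45% of wild-type and 11.2% of Rad21-/- cells, and Mad2l1, a protein of the spindle checkpoint, in 13.6% and 11.6%.

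The comparison of LPS with untreated cells asks how the genes change during the macrophage response. In wild-type cells at 2 h the summed share was 0.854 times that of untreated cells and 0.907 times at equal depth (0.829 to 0.992). The share of cells with at least 4 genes differed by -0.445 percentage points. By single genes, 13 of 43 were found in a smaller share at 2 h with all UMIs and 27 at equal depth. Over all 10426 genes with 50 UMIs these shares were 32.3% and 54.4%, so that the listed genes lay near the background. The count was 22 without the wells above 25000 UMIs, and 22 also without the 2 h pool of 47 wild-type cells. Of 39 genes that met the filter, Cks2 was higher by 1.5-fold and 8 were lower, where the background was 10.1% higher and 14.8% lower. The 8 were Ccnb1, Cenpf, Aurkb, Birc5, Aurka, Kif11, Racgap1 and Plk1, with log2 ratios from -1.15 for Ccnb1 to -0.61 for Plk1.

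At 8 h of LPS the summed share of wild-type cells was 0.354 times that of untreated cells, and 0.370 times at equal depth (0.332 to 0.412). All genes but Pttg1 were found in fewer cells, 42 of 43, and 42 at equal depth as well, where 57.2% of all 9069 genes with 50 UMIs were lower (62.1% at equal depth). The median difference was -8.87 percentage points against -1.13 over all genes. Of 26 genes that met the filter, 23 were lower by 1.5-fold and Pttg1 was higher (background 29.4% lower and 13.1% higher). Without Pttg1 the ratio of the summed share was 0.248.

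In Rad21-/- macrophages the summed share after 2 h was 0.551 times that of untreated cells (0.541 at equal depth, 0.472 to 0.620), and after 8 h 0.573 times (0.597 at equal depth, 0.529 to 0.673). At 2 h, 38 of 43 genes were found in a smaller share of cells than untreated, and 38 at equal depth. Over all genes these shares were 36.3% and 50.1%. Of 22 listed genes that met the filter, 13 were lower by 1.5-fold and 0 higher (background 10.2% lower and 9.29% higher). At 8 h, 32 of 43 were found in a smaller share (37 at equal depth), against 25.8% of all genes (50.3% at equal depth), 13 of 22 were lower by 1.5-fold, and Pttg1 was higher, beside 15.4% and 15.5% of all genes. The median differences were -2.63 and -2.71 percentage points, against 1.60 and 3.77 over all genes. At equal depth they were -2.24 and -2.60, against -0.0175 and -0.00663 over all genes. These comparisons share the untreated sample, and the comparisons of genotypes share samples with those of time.

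**Figure D4:**
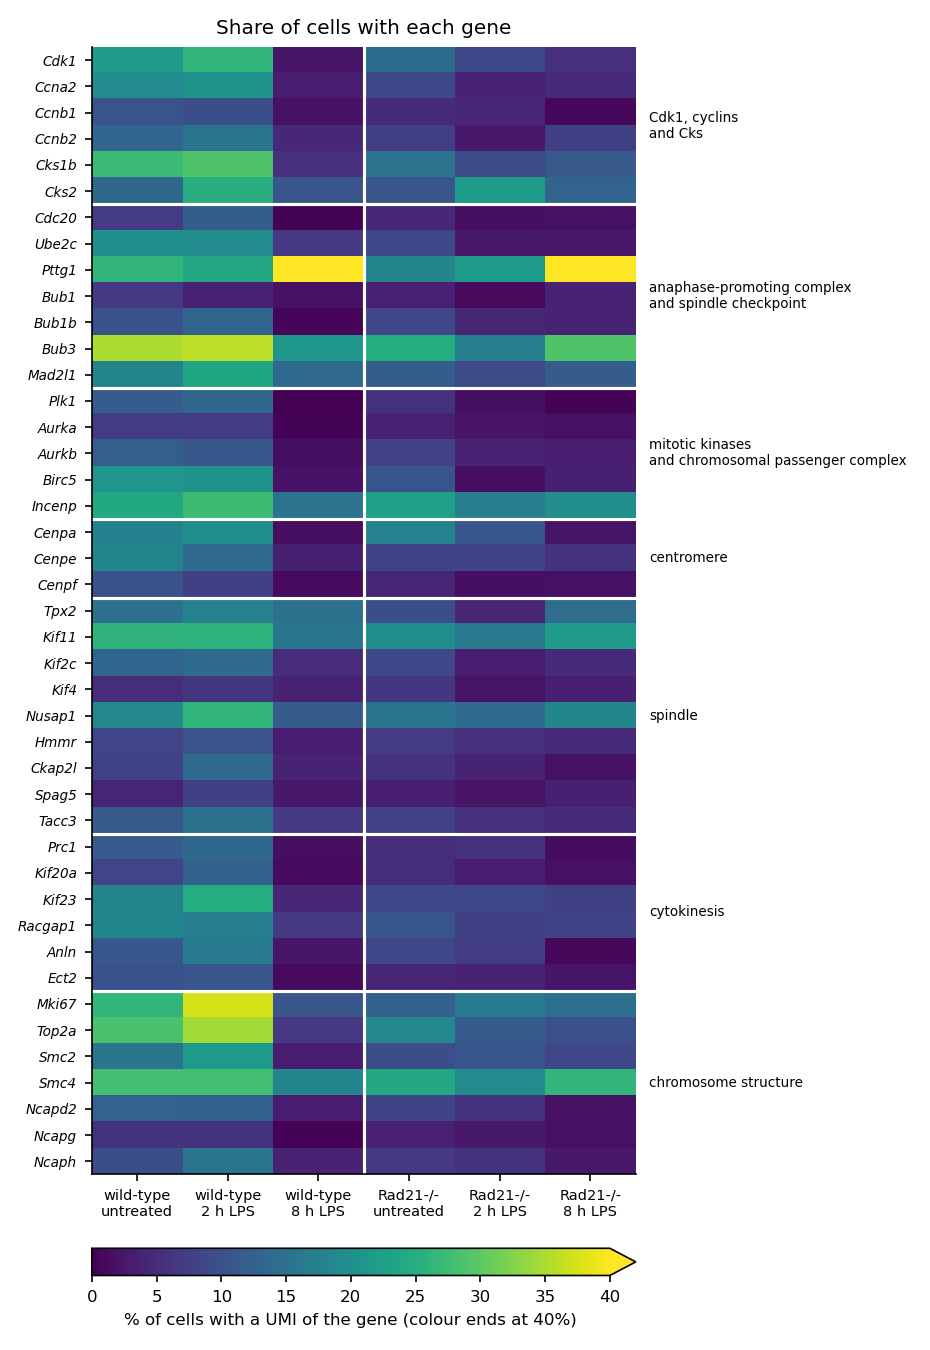
Percent of cells with at least 1 UMI of each of the 43 genes (rows, grouped by role) in the 6 samples (columns), with the colour scale ending at 40%. Most rows are dark at 8 h in wild-type cells and in both LPS samples of Rad21-/- cells, whereas Pttg1 is brightest at 8 h (63.4% and 46.9%) and Cks2 at 2 h (25.3% and 22.0%).

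Among Cdk1, its cyclins and the small Cks subunits that bind it, Cdk1 had UMIs in 22.2%, 26.3% and 2.33% of wild-type cells (untreated, 2 h and 8 h) and in 14.1%, 8.60% and 5.36% of Rad21-/- cells. The mean level of Cdk1 was 59.3 CPM in untreated wild-type cells and 5.90 CPM at 8 h. Cyclin B1 (Ccnb1), which activates Cdk1 at the entry to mitosis, was found in 10.5%, 9.68% and 1.95% of wild-type cells and in 4.81%, 4.30% and 0.893% of Rad21-/- cells. Cks1b, also known as a cofactor of the ubiquitin ligase that removes the inhibitor p27, was found in 27.2%, 29% and 5.45% of wild-type and 15.2%, 9.14% and 11.2% of Rad21-/- cells. Cks2 had another order. It was found in 13.4% of wild-type cells when untreated, 25.3% at 2 h and 10.5% at 8 h, and in 10.7%, 22.0% and 12.9% of Rad21-/- cells. At equal depth the difference of Cks2 between 2 h and untreated cells was 8.12 percentage points in wild-type and 1.67 in Rad21-/- macrophages.

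Of the anaphase-promoting complex and the spindle checkpoint, Ube2c, the carrier that hands ubiquitin to the complex, was found in 20.1%, 19.4% and 6.61% of wild-type cells and in 8.89%, 2.69% and 2.68% of Rad21-/- cells. Its mean level was 82.9, 57.4 and 12.1 CPM in wild-type and 30.1, 5.24 and 5.56 CPM in Rad21-/- macrophages. Cdc20, which activates the complex, had 17.5 CPM in untreated wild-type cells and UMIs in 0.389% of wild-type macrophages at 8 h. Bub3, a checkpoint protein that also binds RNA-processing factors outside mitosis, differed less, with 35.1%, 36% and 21% of wild-type and 24.8%, 17.2% and 29% of Rad21-/- cells.

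Pttg1, which encodes securin, the inhibitor of the protease that cuts cohesin at anaphase, went against the other genes. It had UMIs in 26.4% of untreated wild-type cells (20.9 to 32.4), in 24.2% after 2 h (18.2 to 31.0) and in 63.4% after 8 h (57.2 to 69.3). Among Rad21-/- macrophages the values were 18.1% (13.7 to 23.3), 22.0% (16.3 to 28.7) and 46.9% (40.2 to 53.6). The 8 h samples stand above the untreated and 2 h samples of their genotype with no overlap of intervals, and the wild-type 8 h sample also stands above that of Rad21-/- cells. The mean level of Pttg1 was 57.1, 39.8 and 180 CPM in wild-type and 36.5, 36.8 and 96.5 CPM in Rad21-/- macrophages. In cells with a Pttg1 UMI the level was 217 CPM untreated and 283 CPM at 8 h in wild-type cells, and 201 and 206 CPM in Rad21-/- cells. Pttg1 made up 3.66% of the summed CPM of the 43 genes in untreated wild-type cells and 32.6% at 8 h, and 4.03% and 18.6% in Rad21-/- cells. Within pools with at least 10 cells, its share of wild-type cells lay between 54.2% and 81.8% at 8 h and between 0% and 40% in untreated pools, and in 6 of 6 pools at 8 h it was lower in Rad21-/- cells. Without Pttg1 the summed share of the remaining genes at 8 h was 1.14 times as high in Rad21-/- as in wild-type cells, which turns the direction of the ratio of 0.941.

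The number of other listed genes was compared between cells with and without Pttg1. In the wild-type 8 h sample at 3800 UMIs, 120 of 228 cells had no Pttg1 UMI and a mean of 1.38 of the other genes, and the cells with one had 1.34. In the Rad21-/- 8 h sample these means were 1.78 in 63 cells and 1.48 in 140 cells. In untreated wild-type cells they were 4.71 in the 31 cells with Pttg1 and 4.32 in the remainder of the 192 cells, and at 2 h 4.48 in 25 cells and 4.19 in the others. In untreated Rad21-/- cells the mean was lower with Pttg1, 2.04 in 26 cells against 2.83, and at 2 h it was higher, 2.14 in 21 cells against 1.504. The sign of the difference thus varied between samples.

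The mitotic kinases and the chromosomal passenger complex were low throughout the 8 h samples. Plk1, polo-like kinase, was found in 11.7% and 13.4% of untreated and 2 h wild-type cells and in 0 of 257 cells at 8 h, a count that leaves room for UMIs in up to 1.17% of cells (3 cells) and sets no limit on cells that express the gene. In Rad21-/- macrophages Plk1 was found in 5.93%, 1.61% and 0.446% of cells. Birc5 (survivin), a subunit of the passenger complex, was found in 20.9%, 20.4% and 1.95% of wild-type and 10.4%, 1.61% and 3.57% of Rad21-/- cells. Its difference between 2 h and untreated Rad21-/- cells was -8.76 percentage points, the lowest of that comparison among the listed genes with 50 UMIs. Incenp, the scaffold of the same complex, kept a higher share, with 24.3%, 27.4% and 15.2% of wild-type and 23.0%, 17.2% and 19.6% of Rad21-/- cells.

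At the centromere, Cenpa was found in 17.6%, 19.9% and 1.56% of wild-type and in 17.8%, 10.8% and 2.23% of Rad21-/- cells. Cenpa was thus alike between genotypes in untreated cells, and lower at 8 h in both. Cenpe, a kinesin that moves chromosomes to the spindle equator, differed by -4.01 percentage points between 2 h and untreated wild-type cells, with 14% against 18%.

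Spindle genes differed among themselves. Tpx2, which activates Aurora A on the spindle, was found in 15.1%, 17.7% and 14.8% of wild-type and in 9.63%, 4.30% and 14.3% of Rad21-/- cells, so that its 8 h shares were close to or above the untreated ones. Kif11, the motor that pushes spindle poles apart, was found in 25.9%, 25.8% and 15.6% of wild-type and in 19.6%, 16.1% and 21.9% of Rad21-/- cells. Nusap1, which bundles spindle microtubules, was found in 18.8%, 26.3% and 11.7% of wild-type and in 15.6%, 14% and 18.3% of Rad21-/- cells. At equal depth the Rad21-/- shares of Nusap1 were 10.3%, 8.44% and 7.88%. The 9 spindle genes together had 227, 197 and 110 CPM in wild-type and 152, 83.7 and 105.1 CPM in Rad21-/- macrophages.

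The 6 genes of cytokinesis, which divide the cell body, summed to 161.9, 153.7 and 23.8 CPM in wild-type cells and to 85.5, 51.5 and 23.2 CPM in Rad21-/- cells. All 6 were found in a smaller share of cells at 8 h than untreated in both genotypes. Of all genes, 57.2% were lower in wild-type and 25.8% in Rad21-/- cells. All 6 were also lower in Rad21-/- than in wild-type cells when untreated and at 2 h, beside 49.4% and 52.4% of all genes. At equal depth it was 6 of 6 in each of these comparisons, beside 49.4% to 62.1% of all genes. Kif23, a kinesin of the spindle midzone, was found in 18%, 24.7% and 4.28% of wild-type and in 8.89%, 8.60% and 7.59% of Rad21-/- cells.

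Among genes of chromosome structure, Mki67, which coats mitotic chromosomes and marks cells in cycle, was found in 26.4%, 37.6% and 10.5% of wild-type and in 12.2%, 16.7% and 14.7% of Rad21-/- cells. The wild-type difference of Mki67 between 2 h and untreated cells was 11.3 percentage points with all UMIs and 4.28 at equal depth. In Rad21-/- cells its shares at equal depth were 8.97%, 7.79% and 7.39%, so that the higher shares under LPS were not seen there. Top2a, which untangles sister DNA, was found in 28.5%, 34.4% and 6.61% of wild-type and in 18.5%, 11.3% and 9.82% of Rad21-/- cells, with mean levels of 92.6, 105.7 and 9.81 CPM and of 41.8, 18.2 and 15.9 CPM. Smc4, a condensin subunit, was found in 28.0%, 28.0% and 18.3% of wild-type and in 24.1%, 19.4% and 26.3% of Rad21-/- cells. At equal depth the Rad21-/- shares of Smc4 were 15.7%, 14.3% and 14.8%. Smc4, Bub3 and Nusap1 had the largest positive differences of Rad21-/- from wild-type cells at 8 h, of 8.05, 8.01 and 6.63 percentage points, which at equal depth were 1.62, 4.91 and -0.45.

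The genes also differed in how far they were found in the same cells. Untreated cells of both genotypes, thinned to 3800 UMIs, were divided for each gene by whether at least 3 of the other genes were detected. Ccna2, cyclin A2, was found in 21.6% of the cells with at least 3 others and in 1.58% of the rest, Ube2c in 24.8% and 1.97%, and Kif20a, a kinesin of cytokinesis, in 6.75% and 0.397%. Cdc20 was found in 10.4% and 0.794%. At the other end, Pttg1 was found in 15.9% and 12.5%, Kif2c, a kinesin that shortens microtubules, in 6.29% and 5.08%, Bub1b in 7.59% and 4.67%, and Incenp in 22.9% and 11.8%. Intervals of Pttg1 (10.5 to 22.7 and 8.76 to 17.1) and of Kif2c (3.06 to 11.3 and 2.73 to 8.53) overlap, while those of Ccna2 (15.5 to 28.7 and 0.432 to 4.00) do not. The ratio of the shares had a median of 4.37 over the 43 genes, with 0.5 added to each count. Cells of the genotypes were pooled here, although their levels differ, and single genes could differ within a genotype. Pttg1 was found in 19.1% and 13.6% of wild-type and in 11.3% and 11.8% of Rad21-/- cells, and Kif2c in 8.60% and 8.08% and in 3.03% and 3.18%. Bub1b was found in 8.33% and 2.08% of wild-type cells but in 6.45% and 6.21% of Rad21-/- cells, so that its place near the low end rests on the Rad21-/- sample, and Aurka in 10.4% and 1.04% against 1.49% and 1.28%. Ccna2 had 27.4% and 2.06% among wild-type macrophages, then 13.4% and 1.28% among Rad21-/- macrophages. With at least 6 other genes instead of 3, a choice made after the data were seen, Pttg1 had the lowest ratio, with 16.1% and 13.3%, Kif2c stood at 10.9% and 4.56%, and Cdc20 had the highest, with 26.2% and 0.571%.

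**Figure D5:**
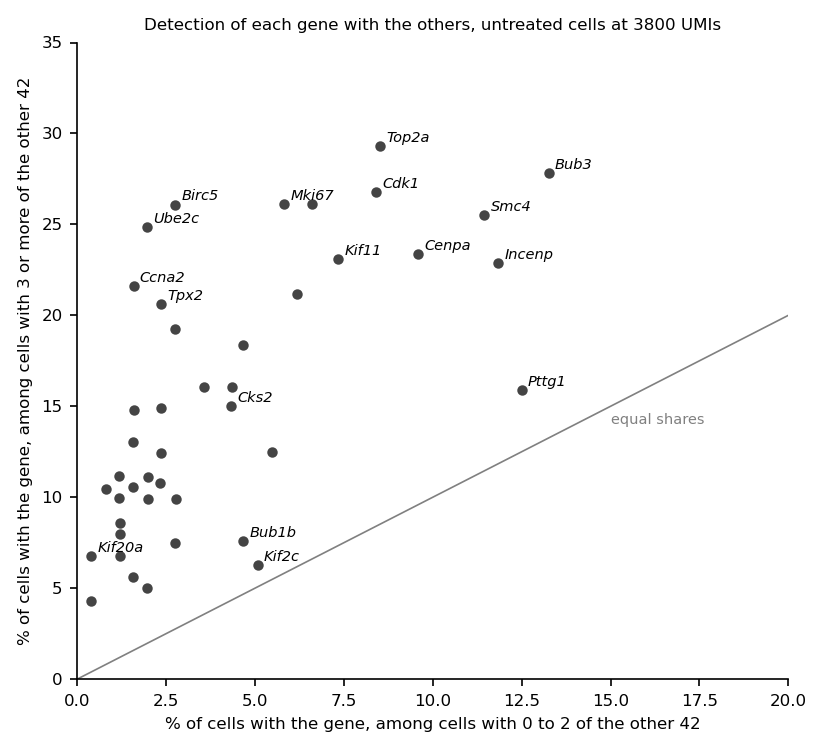
For each of the 43 genes in untreated cells of both genotypes at 3800 UMIs, percent of cells with the gene among cells with 0 to 2 of the other genes (horizontal) and among cells with 3 or more of them (vertical), with some genes named and the line of equal shares. Ube2c (1.97% and 24.8%) and Birc5 (2.76% and 26.1%) lie far above the line, and Pttg1 (12.5% and 15.9%) and Kif2c lie close to it.

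Mitotic transcripts were compared between cells with and without a Rad21 UMI. The 62 untreated wild-type cells with a Rad21 UMI had a mean of 0.276% of UMIs from the 43 genes, and cells without one 0.114%. At 2 h the means were 0.230% in 50 cells and 0.0972% in the others, and at 8 h 0.0591% in 48 cells and 0.0543%. At equal depth, 20 of 34 untreated wild-type cells with Rad21 and 53 of 158 without it had at least 4 of the 43 genes, and at 2 h 16 of 25 and 46 of 140. At 8 h these numbers were 2 of 28 and 16 of 200, so that the difference of the earlier samples was not seen there. In Rad21-/- macrophages the means were 0.169% in 8 cells with Rad21 and 0.0882% in the others when untreated, 0.130% in 12 cells and 0.0444% at 2 h, and 0.0610% in 13 cells and 0.0514% at 8 h. At equal depth, 1 of 5 untreated Rad21-/- cells with Rad21 and 37 of 218 without it had at least 4 of the 43 genes. These numbers were 1 of 4 and 13 of 150 at 2 h, and 0 of 6 and 22 of 197 at 8 h. Rad21-/- cells with Rad21 were thus too few to compare.

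Other genes of the cell cycle, from lists written beside the 43 genes, showed the following. Of 45 further mitosis genes, 43 were found in a smaller share of wild-type cells at 8 h than untreated, 38 in a smaller share of untreated Rad21-/- than wild-type cells and 43 at 2 h, where the shares over all genes were 57.2%, 49.4% and 52.4%. Of 16 that met the filter, 12 were lower by 1.5-fold at 8 h in wild-type cells and 0 higher, beside 29.4% and 13.1% of all genes. Tubulin genes led the differences at 8 h in wild-type cells, with Tuba1b in 72.0% of untreated and 37.0% of 8 h cells, and Tubb5 in 78.7% and 49.4%. In Rad21-/- cells both were found in a larger share at 8 h, Tuba1b in 49.3% untreated and 56.3%, and Tubb5 in 63.3% and 72.3%. Their log2 ratios of mean CPM there were -0.24 and -0.12. Hmgb2, a chromatin protein, went the other way at 2 h, from 28.0% to 71.5% of wild-type and from 17.4% to 42.5% of Rad21-/- cells. Of 24 S-phase genes, 24 were found in a smaller share of wild-type cells at 8 h (57.2% of all genes), among them Mcm3, a subunit of the replicative helicase, with 22.6% untreated and 3.50% at 8 h. At 2 h, 22 of the 24 were found in a larger share of wild-type cells than untreated, and 16 at equal depth, against 67.6% and 45.4% of all genes, with Pcna, the clamp of DNA polymerase, at 66.9% and 80.1%. In untreated Rad21-/- cells 20 of the 24 S-phase genes were found in a smaller share than in wild-type cells, against 49.4% of all genes, with Pcna at 42.6%.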

How the data were processed

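MARS-seq counts of 6 samples were analysed, each a group of its own by its title. The authors deposited raw counts per gene and cell, without normalization. Before that they assigned reads to pools and wells by barcode, trimmed polyT, and mapped with GEMTools 1.7.0 to GRCm38.p4 with Gencode M8. Wells were removed by the authors if spike-ins exceeded 15% or mapping lay under 60% of reads, and UMIs up to 2 edits apart were merged. They state that genes in fewer than 5% of cells were discarded, but 7 of the 43 listed genes lie below that share. Cells were assigned to samples and pools by their names, and 0 columns were left out.

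CPM was computed over all UMIs of a cell. Mean CPM, shares of cells with exact Clopper-Pearson intervals, and summed UMIs with exact Poisson intervals were computed with scipy 1.17.1, numpy 2.4.6 and pandas 2.3.3 in Python 3.11.15. Plots used matplotlib 3.10.9. Intervals are at 95%. Thinning drew 3800 UMIs per cell without replacement, a depth (in steps of 100) set so that 80% of each sample is kept. Ratios of thinned sums carry exact conditional binomial intervals. Library pools with at least 10 cells of each genotype were compared within the pool. For a gene with 0 positive cells, the limit is 3 counts. No doublet caller was run, because cells were sorted singly, and wells above 25000 UMIs were left out as an alternative. Steps were tested on simulated data.

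The listed genes and the other gene lists were chosen with earlier results of these data known. Values in every sample are given for the 12 listed genes with the highest mean CPM and for Mki67, Top2a, Cdk1, Ccnb1 and Plk1. For each comparison the 3 largest differences in share in each direction among listed genes with 50 UMIs could be named, genes against the direction of the list, and 3 genes of each other list. Further genes were named after their values were seen, for what is known of their role or for their detection with the other genes. Alternatives were thinning, leaving out deep wells or each pool, equal weight per pool, other cuts, filters and folds, and leaving out genes. Promoter sequences are from RefSeq on GRCm38.p6, and gene coordinates are from the same table.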

Additional observations from a re-analysis of the deposited data

Results flagged for a closer look

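By some measures, given here, the difference between genotypes had another sign at 8 h than untreated and at 2 h. The summed share of UMIs was lower in Rad21-/- cells when untreated and at 2 h. At 8 h it was 0.941 times wild-type and 0.976 times at equal depth (0.856 to 1.11), so that no difference in the sum of the 43 genes was detectable. Without Pttg1 it was 1.14 times wild-type, a value given without an interval. Pttg1 itself was found in 63.4% of wild-type and 46.9% of Rad21-/- cells at 8 h. The change of sign was not tested, since each group is 1 sample, and the intervals of the share of cells with at least 4 genes overlap at 8 h (6.92 to 15.9 and 4.75 to 12.2). The share of cells with at least 4 of the 43 genes differed by -21.0 percentage points between untreated Rad21-/- and wild-type cells, by -28.5 at 2 h and by 2.94 at 8 h. The median difference in share over the 43 genes was -5.43, -9.68 and 1.40 percentage points, and over all genes at 8 h it was 5.31. Among single genes past 1.5-fold, Cks1b had log2 ratios of Rad21-/- to wild-type mean CPM of -0.90 untreated, -1.92 at 2 h and 1.12 at 8 h, and Top2a had -1.14, -2.51 and 0.68. Without the wells above 25000 UMIs 0 listed genes met both the filter and the fold at 8 h in this direction. At equal depth Top2a was found in 4.39% of wild-type and 4.43% of Rad21-/- cells at 8 h, and Cks1b in 2.19% and 6.40%.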

How the results depend on the processing

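No paired analysis was possible because each group is 1 sample, and the comparison of genotypes within library pools carries no test. The comparison of genotypes at 8 h had 12 listed genes with at least 50 UMIs, against 22 to 39 in the others. The cause of a moved value was not tested, except that thinning and the filter of 200 UMIs leave fewer genes to compare. The log2 ratio of the summed share kept its sign under all alternatives except for Rad21-/- against wild-type cells at 8 h. There it was -0.09, and 0.09 from the sum of UMIs over a sample, 0.08 without the 5 genes with most UMIs, 0.08 without 7 genes with known use outside mitosis, 0.18 without Pttg1 and 0.06 without 1 pool of 8 h.

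The log2 ratio of wild-type 8 h against untreated cells was -2.11 without the 5 genes with most UMIs, -2.24 without 7 genes with known use outside mitosis and -2.01 without Pttg1, instead of -1.50. For Rad21-/- cells at 8 h these values were -1.25, -1.34 and -1.04 instead of -0.80. Without the 7 genes it was -1.12 at 2 h in Rad21-/- cells (instead of -0.86) and -1.71 for the genotypes at 2 h (instead of -1.41). With all UMIs the share of cells with at least 4 genes differed by 0.747 percentage points for Rad21-/- cells at 8 h, which turns its direction, and by -18.3 for the genotypes at 2 h.

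The median difference in share at 2 h in wild-type cells, 1.84 percentage points, reversed to -0.445 at equal depth and to -0.116 without deep wells. At equal depth it was -5.78 for wild-type 8 h, and -4.15, -4.89 and 0.493 for the genotypes untreated, at 2 h and at 8 h, and without deep wells -7.90 at 2 h. With at least 2 UMIs it was -3.35 for wild-type 8 h, -1.31 and -1.41 for Rad21-/- cells at 2 h and 8 h, and -1.80, -4.84 and 0.446 for the genotypes. The number of genes with a lower share at 2 h in wild-type cells, 13, was 27 at equal depth and 22 without deep wells.

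Genes lower by 1.5-fold numbered 1, 7, 1, 0, 8, 3 and 1 at equal depth and 0, 0, 0, 0, 3, 3 and 1 with a filter of 200 UMIs, in the order wild-type 2 h and 8 h, Rad21-/- 2 h and 8 h, and genotypes untreated, at 2 h and at 8 h. For these and the following counts, the number of listed genes that met the filter and the share over all genes are not given. A smaller count therefore does not by itself show a smaller difference. The 2-fold threshold left 1 at 2 h in wild-type cells, 13 for untreated genotypes and 0 for genotypes at 8 h, equal weight per pool left 1 there, and leaving out deep wells 14 for the genotypes at 2 h. Genes higher by 1.5-fold at 2 h in wild-type cells numbered 0 with 200 UMIs and 0 with the 2-fold threshold, and for the genotypes at 8 h 0 at equal depth, 0 without deep wells, 0 with 200 UMIs and 1 with 2-fold.

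Leaving out each pool in turn gave ranges, in the same order of comparisons. The log2 ratio ranged from -0.44 to -0.10, -1.58 to -1.45, -0.95 to -0.79, -0.90 to -0.73, -0.84 to -0.71, -1.53 to -1.30 and -0.21 to 0.06. The share of cells with at least 4 genes ranged from -2.43 to 1.24, -31.3 to -28.8, -9.55 to -6.62, -7.81 to -4.88, -23.5 to -18.8, -30.2 to -25.9 and 1.14 to 3.84 percentage points. The median difference ranged from -1.03 to 3.75, -9.45 to -7.63, -3.38 to -2.16, -3.49 to -1.80, -5.78 to -3.87, -12.7 to -7.28 and 1.02 to 1.78. Genes with a lower share ranged from 5 to 22, 41 to 42, 34 to 39, 30 to 35, 40 to 42, 42 to 43 and 10 to 16. Genes lower by 1.5-fold ranged from 5 to 13, 18 to 24, 9 to 15, 11 to 14, 20 to 25, 17 to 29 and 1 to 3, and genes higher from 0 to 2, 1 to 1, 0 to 2, 1 to 1, 0 to 0, 0 to 0 and 0 to 2. Leaving out the 2 h pool with 47 wild-type cells gave the reversed median of -1.03 and the 17 genes, and leaving out the 8 h pool with 41 wild-type and 46 Rad21-/- cells the positive log2 ratio.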
